A study of Homo sapiens with 4 samples.

Results

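GAS5, SNHG11, SNHG16 and SNHG4 are long noncoding RNA (lncRNA) genes that carry small nucleolar RNAs (snoRNAs) within their transcribed span. They are described here by where SMD2 peaks lay on them. They were chosen by symbol from a deposited list of 9401 peaks assigned to 6399 genes, and together they held 9 of those peaks. The number of peaks per gene was known when they were picked, so their peak counts are a description and no test was run on them. The list comes from PAR-CLIP, a method that finds protein contacts on RNA in living cells by feeding them 4-thiouridine, which long-wave ultraviolet light joins to any protein bound nearby, and by purifying that protein with trimmed pieces of its RNA. HEK293T, an immortalised human embryonic kidney line, was the source of every library in the series, 3 of them from SMD2 immunoprecipitation and 1 an input. The labels give 1 protocol text for all 4 libraries, the input included: 4-thiouridine at 200 uM over 14 h, crosslinking at 365 nm, an anti-FLAG antibody for the pulldown and RNase T1 on the beads. SMD2, the product of SNRPD2, belongs to the Sm ring of spliceosomal small nuclear ribonucleoproteins, and the design text asks whether it contacts RNA that carries pseudouridine.

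A snoRNA host gene is transcribed as a precursor whose introns contain snoRNAs. Splicing releases the introns, the snoRNAs are trimmed out of them, and the joined exons leave as a separate RNA. Box C/D snoRNAs (SNORD) mostly guide ribose methylation of ribosomal RNA, and box H/ACA snoRNAs (SNORA) mostly guide conversion of uridine to pseudouridine. Making a snoRNA from such a gene therefore requires the spliceosome. GAS5 was named for its rise in growth-arrested cells, and its spliced RNA is known to be degraded during translation.

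The 4 genes differ in what they host. In the RefSeq annotation GAS5 spans chr1:173863901-173869045 on the minus strand (5145 nt) and contains 11 snoRNA genes, 10 of them SNORD and 1 SNORA (SNORA103). SNHG11 spans chr20:38446654-38450921 on the plus strand (4268 nt) and contains 2, the H/ACA genes SNORA71E and SNORA60. SNHG4 spans chr5:139274101-139284900 on the plus strand (10800 nt) and contains 2 H/ACA genes, SNORA74D and SNORA74A. SNHG16 spans chr17:76557764-76565348 on the plus strand (7585 nt) and contains 3 C/D genes, SNORD1C, SNORD1B and SNORD1A. GAS5 and SNHG16 thus host mainly methylation guides, and SNHG11 and SNHG4 only guides of the pseudouridine kind.

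Distances along each gene are counted from its RefSeq start. The bases around each start are shown because peaks of SNHG11 and SNHG4 carry a promoter label although they lie well downstream. Each line gives 10 bases before the start in lower case and the first 20 transcribed bases in capitals, on the strand of the gene, from RefSeq (GRCh38.p14).
GAS5, chr1:173869026-173869055: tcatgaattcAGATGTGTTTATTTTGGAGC
SNHG11, chr20:38446644-38446673: gctctaggctGCAGCCGCGCCCCCAGCCGT
SNHG16, chr17:76557754-76557783: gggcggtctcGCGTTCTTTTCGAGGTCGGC
SNHG4, chr5:139274091-139274120: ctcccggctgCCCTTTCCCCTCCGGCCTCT

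The SNHG4 start, which is also the RefSeq start of the protein-coding gene MATR3, opens with 13 pyrimidines in a row. Many host genes are known to begin with a pyrimidine tract of this kind, the terminal oligopyrimidine tract shared with ribosomal protein genes. All of its first 10 bases are pyrimidines, as in 1.01% of 12913 other lncRNA starts. SNHG16 has 8 pyrimidines among its first 10 bases, a number reached by 9.97% of those starts, but its first base is a G. GAS5 and SNHG11 have 5 each, which is also the median over other lncRNA starts. These are RefSeq gene starts, and transcripts may begin elsewhere. The GAS5 start used here lies inside ZBTB37, a protein-coding gene on the plus strand. The counts therefore do not show whether GAS5, SNHG11 or SNHG16 transcripts begin with such a tract. None of the 9 peaks lay within the window of 250 bases before to 50 bases after any of these starts.

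GAS5 held 3 peaks, and the authors' annotation placed all 3 in exons. In the direction of the gene, the first peak (chr1:173866739-173866768) was 30 nt wide and lay 2277 nt from the start. It sat between SNORD75 and SNORD76, 24 nt from SNORD76. The next (chr1:173866509-173866534) was 26 nt wide and lay 2511 nt from the start, between SNORD76 and SNORD77, 101 nt from SNORD76. These peaks therefore flanked SNORD76 on both sides, in neighbouring stretches between snoRNAs, with 204 bases between them. Both overlapped no RefSeq gene other than GAS5.

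The last GAS5 peak stood apart from this pair. It was 18 nt wide (chr1:173863462-173863479) and lay 422 nt beyond the RefSeq end of the gene, 3029 bases from its nearest neighbour. The authors assigned it to another GAS5 transcript, ENST00000702964.1, while the pair was assigned to ENST00000432536.5. In RefSeq the position falls inside GAS5-AS1, a short lncRNA that overlaps the end of GAS5. The list gives no strand, so GAS5 and GAS5-AS1 cannot be told apart at this peak.

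SNHG11 held 2 peaks, at 15% and 21.6% of its span from the start and ahead of both of its snoRNAs. The first (chr20:38447295-38447325) was 31 nt wide, lay 641 nt from the start and was labelled exon. The other (chr20:38447578-38447599) was 22 nt wide, lay 924 nt from the start and was labelled promoter. They were separated by 252 bases, and the downstream one was 484 nt from SNORA71E. Neither overlapped a RefSeq gene other than SNHG11.

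SNHG4 held 2 entries that adjoin. They were 19 nt wide (chr5:139278055-139278073) and 7 nt wide (chr5:139278074-139278080), with 0 bases between them, and both were labelled promoter. Together they formed 1 stretch of 26 nt, 3954 nt from the RefSeq start and between SNORA74D and SNORA74A. The stretch lay 700 nt from SNORA74A, the nearer of the snoRNAs. If the entries are counted as 1 site, SNHG4 had 1 peak.

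The SNHG4 stretch is not assigned to SNHG4 by position alone. It also lies within MATR3, which encodes the nuclear RNA-binding protein matrin 3 and has the same RefSeq start on the same strand, and within LOC124901081, an lncRNA on the minus strand. MATR3 was assigned 3 peaks of its own, all downstream of the SNHG4 span. They began at positions 139307288, 139313052 and 139322389 of chromosome 5 and were 12, 22 and 20 nt wide. The first carries a 5' UTR label, and the other two carry intron labels.

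SNHG16 held 2 peaks by the authors' assignment and 0 by RefSeq position. One (chr17:76590524-76590549) was 26 nt wide and lay 25176 nt beyond the RefSeq end of the gene, where no RefSeq gene is annotated. The other (chr17:76621473-76621495) was 23 nt wide and lay 56125 nt beyond the end, inside the sialyltransferase gene ST6GALNAC1. Both were labelled intron and assigned to a single transcript, ENST00000701062.1. They were 30923 bases apart, and the nearest snoRNA, SNORD1A, was 28818 nt from the closer one. Both peaks thus lay outside the part of the gene that carries its snoRNAs.

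**Figure D1:**
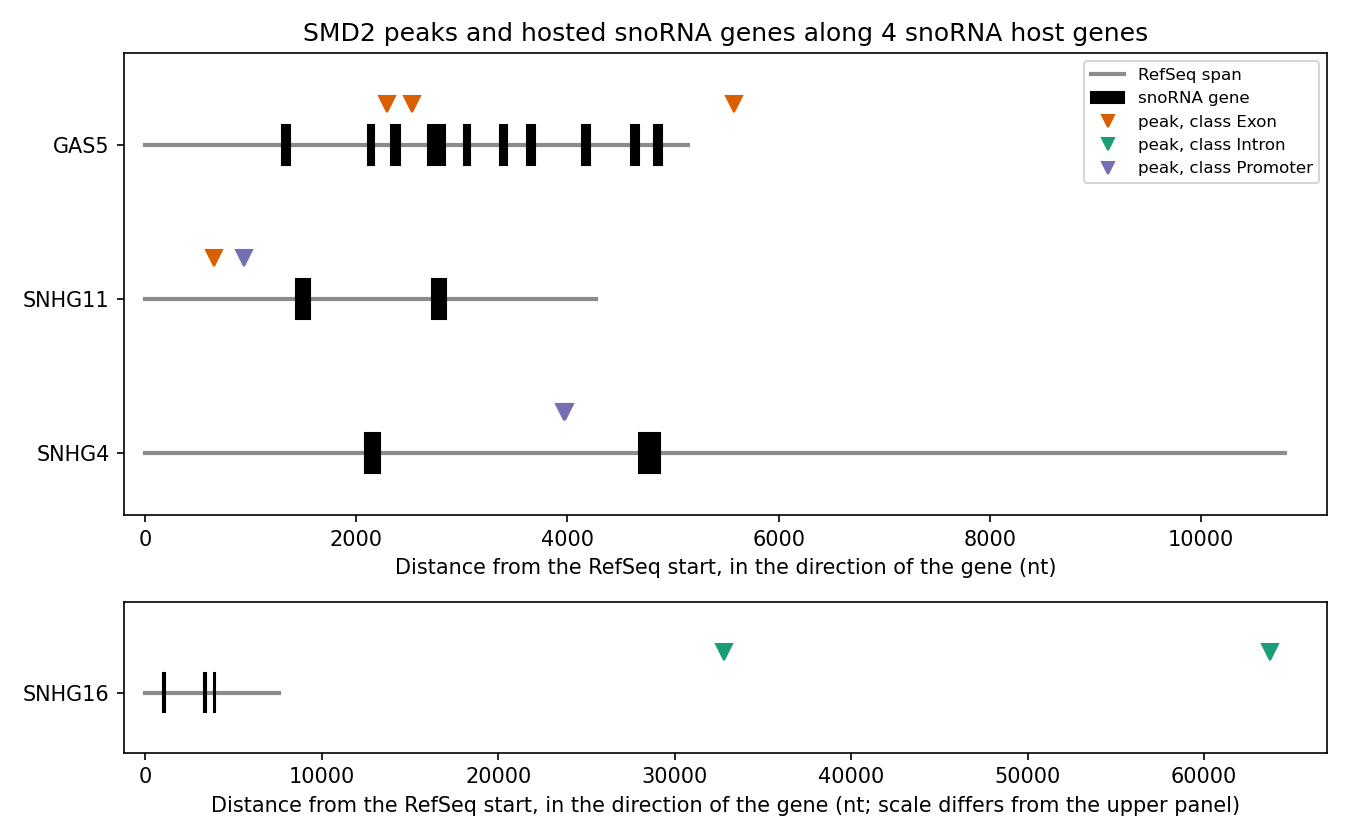
Positions of the 9 peaks (triangles, coloured by the authors' annotation class) and of the hosted snoRNA genes (black boxes) along the RefSeq span of each gene (grey line), in nt from the RefSeq start in the direction of the gene. The GAS5 pair flanks SNORD76, the SNHG11 pair lies ahead of both snoRNAs, the adjoining SNHG4 entries appear as a single triangle between its snoRNAs, and the SNHG16 peaks lie 25176 and 56125 nt beyond its end (lower panel, other scale).

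No snoRNA gene hosted by these 4 genes carried a peak. Of the 18 snoRNA genes inside their spans, 0 were overlapped by any peak of the list, whatever gene it was assigned to, against 25 of 1199 RefSeq snoRNA genes (2.09%). Those 25 comprised 12 SNORD genes, of which 5 were copies of SNORD3 (the U3 snoRNA), 9 SNORA genes and placeholder names. Of the 26 peaks on a snoRNA gene, 23 were assigned to a gene of type snoRNA and 0 to an lncRNA, and the search was therefore made by position and not by the name of the host. With 18 genes, a share of the size seen over all snoRNA genes would not be detectable.

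The peaks nevertheless lay close to snoRNA genes in 3 of the 4 hosts. Within 1000 nt of a snoRNA gene were 7 of the 9 peaks (77.8%, Wilson 95% interval 45.3 to 93.7%), against 3 of 915 peaks of other lncRNA genes (0.328%, 0.112 to 0.96%). The genes were chosen as snoRNA hosts, so nearness to a snoRNA gene follows in part from that choice, and nothing is read from the difference. Among peaks inside snoRNA hosts, whatever name they bear, 6 of 6 in the 4 genes lay within 1000 nt, against 8 of 27 in other lncRNA hosts (29.6%, 15.9 to 48.5%) and 42 of 447 in protein-coding hosts (9.4%, 7.03 to 12.5%). Those hosts include far longer genes, and span was not matched. In GAS5 the snoRNA genes begin between 1300 and 4823 nt of a 5145 nt span. Most positions in GAS5 thus lie within 1000 nt of a snoRNA gene wherever a peak falls, and nothing is read from this comparison either. Both peaks outside that distance were those of SNHG16. Within 100 nt lay 1 peak, the upstream GAS5 peak. Intervals on shares of peaks cover counting error only, since peaks of 1 gene and of 1 list are not replicates.

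The annotation classes were next set beside those of the other lncRNA genes of the list, with the intergenic class left out (720 genes, 915 peaks). Exon labels made up 4 of the 9 peaks (44.4%, 18.9 to 73.3%), against 116 of 915 (12.7%, 10.7 to 15%). GAS5 contributed 3 of these 4, and without GAS5 the share was 16.7%. Promoter labels made up 3 of the 9 (33.3%, 12.1 to 64.6%), against 156 of 915 (17%, 14.8 to 19.6%). SNHG4 contributed 2 of these 3, its adjoining entries, and without SNHG4 the share was 14.3%, below that of the other lncRNA genes. Intron labels made up 2 of the 9 (22.2%, 6.32 to 54.7%), both on SNHG16, against 564 of 915 (61.6%, 58.4 to 64.7%). Termination site, 3' UTR and 5' UTR labels were at 0 on the 4 genes and at 4.48%, 3.83% and 0.328% over the others. With 9 peaks from 4 genes the intervals are wide, and the difference was not tested.

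**Figure D2:**
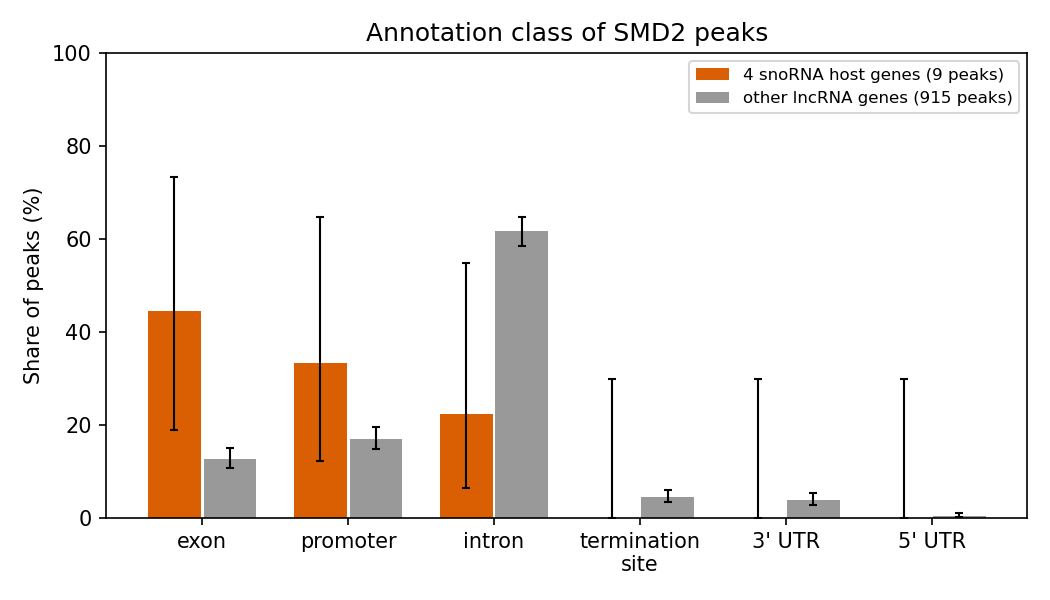
Share of peaks (%) in each annotation class for the 4 snoRNA host genes (orange, 9 peaks) and for the other lncRNA genes (grey, 915 peaks), with Wilson 95% intervals that cover counting error only. Exon labels stand at 44.4% against 12.7% and intron labels at 22.2% against 61.6%.

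Exon peaks were seldom repeated in a lncRNA gene. Of 724 lncRNA genes with a peak, 8 had at least 2 exon peaks, and 1 of them, GAS5, had 3. These 3 include the peak beyond the RefSeq end of GAS5, where GAS5 and GAS5-AS1 cannot be told apart. Without that peak GAS5 would have 2 exon peaks, like the rest of the 8, and the next comparison would not apply. Among the 18 other lncRNA genes with 3 peaks, 0 had all of them in exons, so that none of these matched GAS5 in number and class. Protein-coding genes were not examined for this. The exons meant here are those of the authors' transcript models, since the gene table used for spans gives none.

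On these genes the promoter label did not mark the RefSeq start. All 3 promoter peaks of the 4 genes lay over 500 nt inside the gene, 924 nt in SNHG11 and 3954 and 3973 nt in SNHG4. The same held for 20 of 24 promoter peaks inside the span of another lncRNA gene (83.3%, 64.1 to 93.3%), whose median distance from the start was 5939 nt. These 24 are only part of the 156 promoter peaks of other lncRNA genes. Counted were peaks inside the RefSeq span of their own gene, where its strand was known. Peaks ahead of a start were thus left out, so the share does not describe the promoter label in general. The starts of single transcripts were not used here, so these distances refer to the RefSeq gene start only.

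Peak widths lay in the usual range. The 9 peaks were 7 to 31 nt wide with a median of 23 nt, and peaks of other lncRNA genes had a median of 22 nt (interquartile range 19 to 29 nt, range 1 to 1908 nt). The widest, 31 nt on SNHG11, had 705 of the 915 other peaks below it. The narrowest was the 7 nt entry of SNHG4, with 13 of the 915 below it, and this entry adjoins its neighbour. The exon peaks had a median of 28 nt, against 22 nt for exon peaks of other lncRNA genes, whose interquartile range was 19 to 31.2 nt.

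**Figure D3:**
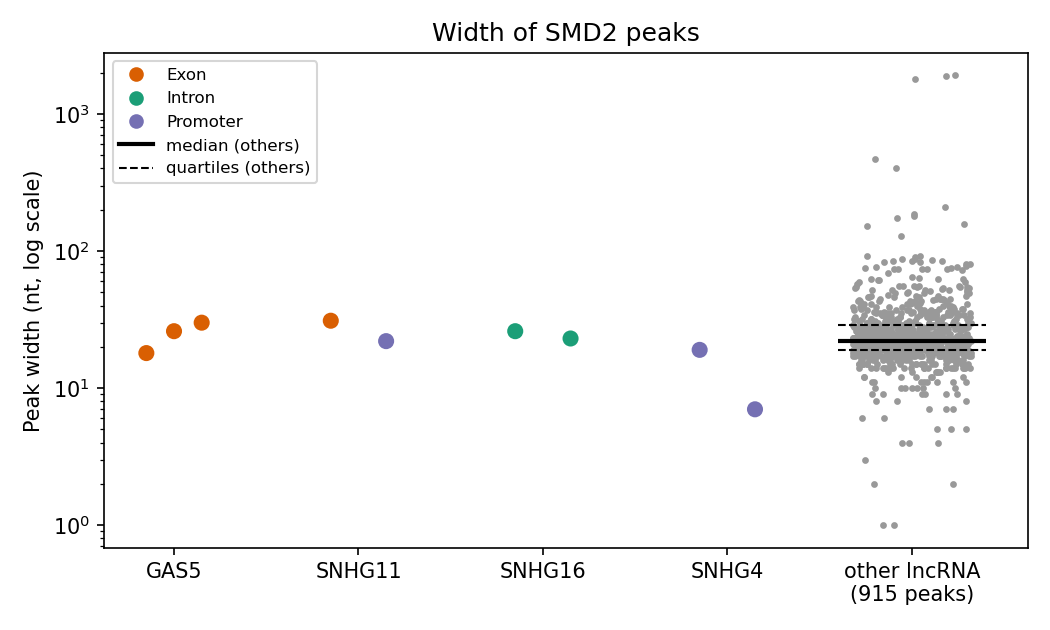
Width of each peak (nt, log scale) on the 4 genes, coloured by annotation class, beside the 915 peaks of other lncRNA genes (grey points; black line, median of 22 nt; dashed lines, quartiles of 19 and 29 nt). The 9 peaks lie between 7 and 31 nt, and the wide peaks of other lncRNA genes have no counterpart among them.

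The number of peaks per gene was known when these genes were picked by symbol. All 4 had at least 2 peaks, GAS5 3 and the others 2 each, whereas 107 of the 720 other lncRNA genes had at least 2 (14.9%) and 36 had at least 3 (5%). Since the choice was made with these numbers known, nothing is read from this. The peaks inside the RefSeq spans covered 1.09% of GAS5, 1.24% of SNHG11 and 0.241% of SNHG4.

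Within a gene, 3 of the 5 gaps between neighbouring peaks were at most 1000 nt (60%, 23.1 to 88.2%), 1 each in GAS5, SNHG11 and SNHG4. Among 107 other lncRNA genes with at least 2 peaks, 40 of 195 gaps were that short (20.5%, 15.4 to 26.7%), and the median gap was 8465 nt. With peaks within 50 nt merged, the shares were 50% of 4 gaps and 12.9% of 178 gaps. The GAS5 pair, 204 bases apart, had 22 shorter gaps among the 195, and the SNHG11 pair, 252 bases apart, had 23. The adjoining SNHG4 entries had 14 like them. The SNHG16 gap of 30923 nt exceeded 146 of the 195. The RefSeq spans of GAS5 and SNHG11 are also short, and peaks inside them cannot lie far apart. Peaks were assigned by the authors' transcripts, however, and can lie beyond the RefSeq span, as on SNHG16. The gaps were not matched for span.

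**Figure D4:**
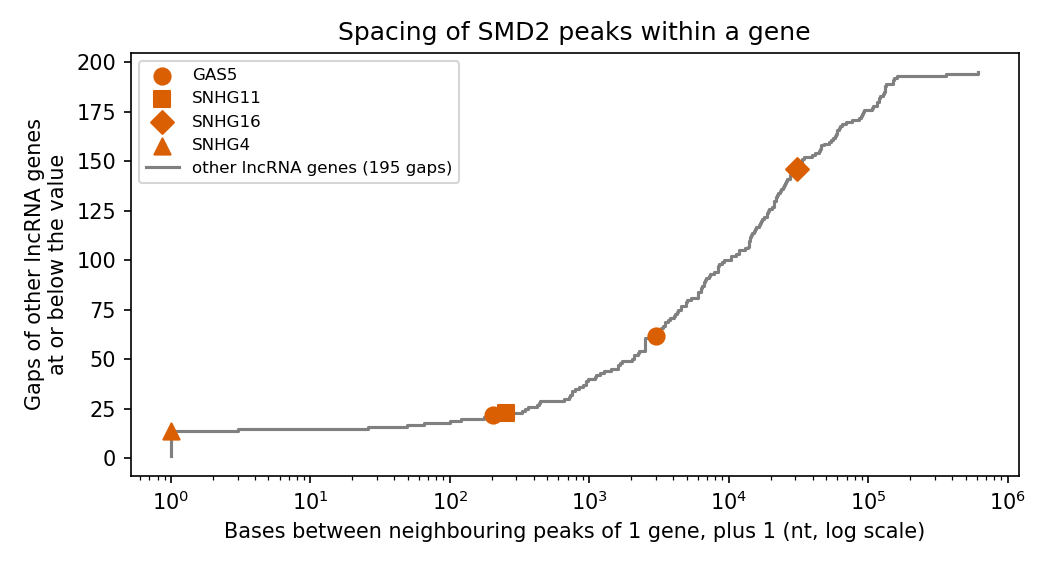
Bases between neighbouring peaks of a gene, plus 1 (nt, log scale), for the 4 genes (orange symbols) on the cumulative number of gaps in other lncRNA genes (grey line, 195 gaps). The gaps of 0, 204 and 252 nt stand at 14, 22 and 23 of the 195, and those of 3029 and 30923 nt stand at 62 and 146.

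Position gave a firmer base for some of the 9 peaks than for others. Inside the RefSeq span of the assigned gene lay 6 of 9 (66.7%, 35.4 to 87.9%), against 283 of 404 peaks of other lncRNA genes that RefSeq names (70%, 65.4 to 74.3%). Inside that span and in no other RefSeq gene, snoRNA genes aside, lay 4 of 9 (44.4%, 18.9 to 73.3%), against 181 of 404 (44.8%, 40 to 49.7%). These 4 were the GAS5 pair and the SNHG11 pair.

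The other noncoding snoRNA hosts were followed through a list of 36 symbols, of which 35 are in RefSeq and 29 contain a RefSeq snoRNA gene. By assigned name 5 held a peak, the 4 genes above and SNHG1. Since the 4 were picked with their peaks known, only the other 32 symbols can be set beside a background, and 1 of these held a peak (3.12%, 0.554 to 15.7%). The share was 4.63% for named RefSeq lncRNA genes without a snoRNA gene inside (270 of 5831), and the interval takes it in. With placeholder symbols kept it was 1.48% (270 of 18185). The same 270 genes were counted, so no placeholder symbol matched a peak by name. The lower share is therefore no background for a list of named genes. SNHG1, with 1 peak, contains 9 snoRNA genes. Its peak (chr11:62852843-62852883) was 41 nt wide and labelled promoter, and it lay 3002 nt from the RefSeq start and 27 nt from SNORD22. Like the upstream GAS5 peak, it lay within 100 nt of a snoRNA gene without touching it.

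By position, 8 of the 35 listed genes had a peak inside their span. GAS5, SNHG11 and SNHG4, picked with their peaks known, are among them, and so is GAS5-AS1, which contains no RefSeq snoRNA gene. The share by position was not computed for other lncRNA genes, so nothing is read from this count. ZFAS1 had 2, of 24 and 36 nt, and the first overlapped SNORD12B and bore its name. The other lay 114 nt from SNORD12. EPB41L4A-AS1 had 1 of 27 nt, on SNORA13. SNHG14, the long host of the imprinted snoRNA clusters of chromosome 15, had 4 across 595855 nt, assigned to SNRPN, UBE3A and a pair of unnamed genes, none closer than 17262 nt to a snoRNA gene. GAS5-AS1 had the 18 nt peak described under GAS5. In ZFAS1 and EPB41L4A-AS1, then, a hosted snoRNA carried a peak, and in GAS5, SNHG11, SNHG4 and SNHG1 none did, at distances of 24 nt (GAS5) to 700 nt (SNHG4) from the closest peak inside the span to the nearest snoRNA gene.

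Over all RefSeq genes that contain a snoRNA gene, 9 of 83 named lncRNA hosts other than the 4 genes (10.8%, 5.81 to 19.3%) and 224 of 519 named protein-coding hosts (43.2%) had a peak by name, against 4.63% of named lncRNA genes and 21.6% of named protein-coding genes without a snoRNA gene inside. Hosts are longer, with median spans of 34208 against 10808 nt for lncRNA genes and 78709 against 24588 nt for protein-coding genes, and the part of span in these shares was not tested. The protein-coding hosts with the most peaks were the histone methyltransferase gene ASH1L with 8, NUCKS1 with 7, and 4 genes with 6 each: EXT1, which makes heparan sulfate chains, the nucleoporin gene NUP98, SMG1, a kinase of nonsense-mediated decay, and TTC28. Leaving aside peaks of the 4 genes, of 447 peaks inside protein-coding hosts 16 overlapped a snoRNA gene (3.58%, 2.22 to 5.73%), and of 27 inside other lncRNA hosts 5 did (18.5%, 8.18 to 36.7%). For the 6 peaks inside the spans of the 4 genes the number was 0, with a Wilson 95% upper limit of 39%.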

How the data were processed

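The authors deposited 1 list of peak positions (start, end, transcript, gene, gene type and annotation class). It has no height, score, strand or column per library, so depth is unknown and the input enters no comparison. The submitters' processing notes name Trim Galore 0.6.10, Bowtie2 2.5.1 and build hg38. How peaks were called and annotated, and whether libraries were pooled, is not given in the sources used here. Groups came from sample titles.

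Starts, counted from 0 in the list, are printed counted from 1. Distances run from the last base of 1 feature to the first base of the other, and 0 means overlap. Gaps between peaks of 1 gene are instead the bases between them, so that adjoining entries have a gap of 0. Gene spans, strands and starts came from RefSeq tables of GRCh38.p14, without exons. Genes were matched by symbol: 404 of 915 peaks of other lncRNA genes and all 9 of the 4 genes matched. Shares have Wilson 95% intervals. The 4 genes and the host list were chosen with earlier results of these data known, and no test was run. Distance and merging functions were tested on simulated data. Named are the 4 genes, listed hosts with a peak, genes overlapping their peaks, and ZBTB37, which overlaps GAS5. Also named are the protein-coding hosts with most peaks (4 by the rule, ties by symbol, with the tied SMG1 and TTC28 added). Alternatives were merged peaks (within 50 nt), omission of each gene, the intergenic class kept, other lncRNA backgrounds and other distances. Intervals came from scipy 1.17.1 and figures from matplotlib 3.10.9, under Python 3.11.15 with pandas 2.3.3 and numpy 2.4.6.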

Additional observations from a re-analysis of the deposited data

How the results depend on the processing

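Of 64 values under an alternative, over 16 measures, 52 stayed within the interval, spread or 1.5-fold range of the reported value and 12 did not. Some of these outcomes were fixed in advance. No peak of the 4 genes is of the intergenic class, so keeping that class could not change their values. The ranges also differ greatly in width, so 52 against 12 is not a measure of robustness. Leaving out each of the 4 genes in turn gave exon shares of 16.7 to 57.1% (lowest without GAS5), intron shares of 0 to 33.3% (0 without SNHG16) and promoter shares of 14.3% (without SNHG4, below the 17% of other lncRNA genes) to 50% (without GAS5). With the intergenic class kept, other lncRNA genes had exon, intron and promoter shares of 9.2%, 44.7% and 12.4%, because the class enters the denominator. Other lncRNA genes with at least 2 peaks had 69.9% intron and 12.9% promoter labels. With peaks within 50 nt merged, SNHG4 had 1 peak, 3 of the 4 genes had at least 2, and 50% of gaps in the 4 genes and 12.9% of gaps in other lncRNA genes were at most 1000 nt, in place of 60% and 20.5%. Peaks near a snoRNA gene numbered 0 by overlap, 1 within 100 nt and 7 within 1000 nt. Listed hosts with a peak were 5 by name and 8 by position. Of 700 RefSeq hosts of any biotype 241 had a peak, and 13 when only lncRNA hosts were counted. All these counts include genes picked with their peaks known, so nothing is read from them. With the 4 genes left out, 9 of 83 named lncRNA hosts had a peak (10.8%), against 4.63% of named lncRNA genes without a snoRNA gene inside. No paired analysis was possible because the list holds no value per library. The list has no replicate, strand or peak height, and 9 peaks limit every share given for the 4 genes.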
